A study of Mus musculus with 15 samples.

Results

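Bhlhe40, Bhlhe41, Egr2, Irf4, Batf3 and Myrf encode transcription factors and form a list named for a rise with interleukin 4 (IL4), a cytokine of type 2 immunity. They are 6 of 34245 genes in the read count table of the differentiation libraries and 6 of 25965 in that of the IL4 libraries. The list was chosen by the measured IL4 response, so the IL4 values below describe the choice and carry no test. The levels over differentiation come from other libraries and were tested. The name holds for 5 of the 6 in the reads, while Bhlhe41 was listed at 0 in every IL4 library. Myrf stands under the older symbol Gm98 in the IL4 table and was matched by its identifier.

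Macrophages answer IL4 through STAT6, a latent factor that enters the nucleus once the receptor is engaged and switches on the genes of alternative activation, Arg1 and Retnla among them. The 6 factors are of the kind that carry such a response onward to further genes. Bhlhe40 and Bhlhe41 (also called Dec1 and Dec2) are related basic helix-loop-helix repressors that bind the E-box letters CACGTG and dampen the circadian clock. Egr2 is a zinc finger factor of the early growth response family. Irf4 is an interferon regulatory factor that binds DNA jointly with PU.1 or with BATF-type partners, and Batf3 is such a partner, a small basic leucine zipper factor required for one lineage of dendritic cells. Myrf is best known as the myelin gene regulator of oligodendrocytes and starts as a membrane-bound precursor protein.

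All cells came from the bone marrow of male C57BL/6 mice, 8 to 10 weeks old, cultured with CSF-1 (colony-stimulating factor 1), on which macrophage growth depends. There were 5 groups of 3 libraries, with mice numbered 1 to 3 in each. Non-adherent precursors had spent 2 days at 0.6 ng/ml CSF-1 in 15% fetal calf serum (FCS), and immature macrophages another 4 days at 12 ng/ml CSF-1 with 10% FCS. Mature macrophages had spent 1 day at 0.6, 2 days at 12 and 7 days at 120 ng/ml CSF-1. IL4-treated cells were mature macrophages kept for 48 h more at 120 ng/ml CSF-1 with 20 ng/ml IL4, and unstimulated cells were kept alike without IL4. All groups thus shared CSF-1, and between stages its dose, the time in culture and, after the precursors, the serum changed together. All were marrow cultures, not tissue macrophages, and 1 RNA was made per library from all of its cells.

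The differentiation libraries held 7897769 to 22167294 reads on genes and the IL4-table libraries 2408531 to 4214266, so low genes are less precise in the IL4 table. Levels are CPM, reads scaled to library size with edgeR, and changes are log2 fold changes ± SE of the edgeR fit. A gene rose or fell where the adjusted p of edgeR's quasi-likelihood test, over all genes tested, was under 0.05. The macrophage markers Csf1r, Adgre1 and Cd68 had reads in every library, and the 6 macrophage markers summed to 1971 to 2589 CPM in precursors, 4389 to 8023 in immature and 5934 to 6905 in mature macrophages. The summed markers of B cells, dendritic cells, mast cells and basophils, eosinophils, neutrophils and erythroid cells lay higher in every precursor library than in any later one. Those of T cells did not, at 13.8 to 16.2 CPM in precursors, 2.81 to 32.8 in immature and 0.306 to 0.819 in mature macrophages, with Cd4 nearly all of it in immature ones. The 6 neutrophil markers summed to 4606 to 7091 CPM in precursors, 56.7 to 77.0 in immature and 0.459 to 1.17 in mature macrophages. The treatment showed in its usual markers, as Arg1, the arginase of alternative activation, stood at 1804 ± 137 CPM with IL4 and 5.11 ± 6.06 CPM without (SD, n = 3 each). Retnla, a secreted resistin-like protein, had 9463 to 69697 reads with IL4 and 0 reads without. Chil3, a chitinase-like protein, was listed at 0 in all 6 of these libraries, and Mrc1, the mannose receptor, was lower with IL4 (-0.86 ± 0.23, adjusted p = 0.0236), a call lost without unstimulated library 1 (adjusted p = 0.0717) or 3 (0.0554) or IL4 library 1 (0.0538) or 2 (0.106).

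Among the 5 members with reads in the IL4 table, Bhlhe40 had the highest level after IL4, and these 5 of the 6 members lay higher in all 3 IL4 libraries than in any unstimulated one. Across the table, 10.5% of 8936 genes tested rose and 10.3% fell with IL4, 937 and 918 genes, and 1447 and 1436 with the mouse number as a replicate block. That background stands beside the count of 5 without being read against it, since the members were picked on this contrast.

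Bhlhe40 (ENSMUSG00000030103, chromosome 6, 108660629 to 108666925, plus strand of GRCm38) had 1079, 854 and 929 CPM in IL4 libraries 1, 2 and 3, against 14.5, 24.7 and 16.0 CPM in unstimulated libraries 1, 2 and 3. The IL4 libraries lay within a narrow band, far above all unstimulated ones. The log2 fold change was 5.72 ± 0.25, from a mean of 954 ± 115 CPM with IL4 and 18.4 ± 5.50 CPM without (SD, n = 3 each).

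Egr2 (ENSMUSG00000037868, chromosome 10, 67535475 to 67542188, plus strand) had 269.9, 234 and 183 CPM in the IL4 libraries, against 15.7, 6.59 and 5.67 CPM in the unstimulated ones. Unstimulated library 1 was the highest of its group, and IL4 library 1 of its own. The log2 fold change was 4.57 ± 0.35, and 5.23 without unstimulated library 1.

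Irf4 (ENSMUSG00000021356, chromosome 13, 30749226 to 30766976, plus strand) had 86.0, 124 and 72.8 CPM in the IL4 libraries, against 7.04, 4.12 and 4.93 CPM in the unstimulated ones. IL4 library 2 was the highest of its group, and the groups did not overlap. The log2 fold change was 4.09 ± 0.29.

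Batf3 (ENSMUSG00000026630, chromosome 1, 191097847 to 191108945, plus strand) had 14.2, 16.2 and 11.9 CPM in the IL4 libraries, against 0.704, 0.824 and 0.740 CPM in the unstimulated ones. These unstimulated levels rest on 8 reads in all, against 138 with IL4. The log2 fold change was 4.17 ± 0.33.

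Myrf (ENSMUSG00000036098, chromosome 19, 10208272 to 10240748, minus strand) had 127, 87 and 75 reads in the IL4 libraries, or 34.0, 28.8 and 24.7 CPM, against 1 read in each unstimulated library. With so few reads in the lower group, its size is best given as the ratio of pooled scaled reads, 106-fold higher with IL4 with an exact 95% interval of 35.8 to 515 that covers counting error only. The 3 IL4 libraries lay close together.

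Bhlhe41 (ENSMUSG00000030256, chromosome 6, 145858243 to 145865558, minus strand) was listed at 0 in all 6 libraries of the IL4 table. It had 281 to 1143 reads in the mature libraries of the differentiation table, from which the IL4 cultures differ by 48 h. Among genes matched by identifier in both tables, 9074 had at least 50 reads in each mature library. Of these, 615, or 6.78%, were likewise at 0 in all 6 IL4-table libraries, 41 ribosomal protein genes among them. A 0 in this table is therefore no measure of absence, and no IL4 response of Bhlhe41 can be read from it.

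**Figure D1:**
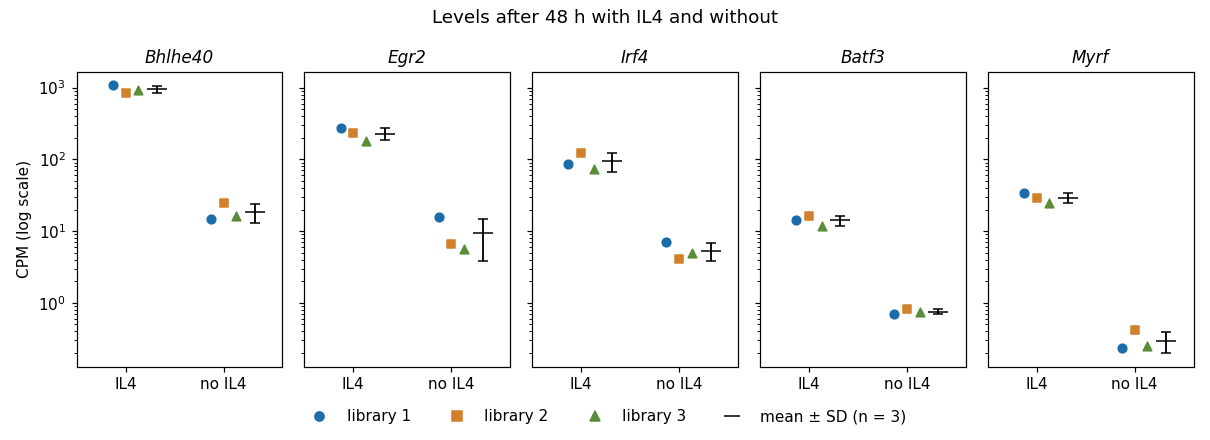
CPM of 5 members (log axis) in the 3 IL4 libraries (left in each panel) and the 3 unstimulated libraries (right), with the group mean ± SD. No IL4 point overlaps an unstimulated one. Bhlhe40 stands at 854 to 1079 CPM with IL4 and 14.5 to 24.7 CPM without, and each unstimulated point of Myrf is 1 read.

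Divided by the length of each gene's exons in GENCODE M21, the mean level after IL4 ran in the order Bhlhe40 (203 CPM per kb), Egr2 (67.4), Irf4 (19.3), Batf3 (8.82) and Myrf (3.41). Without IL4 the order was the same, at 3.92, 2.75, 1.09, 0.473 and 0.0348 CPM per kb. Bhlhe41, at 0 in this table, has no place in either order.

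The stretch before the RefSeq start is shown for Bhlhe41, Egr2, Batf3 and Irf4. These are the 4 of the 6 members that the RefSeq promoter table for GRCm38.p6 has. The table gives 250 bases before and 50 after a start, and the bases before the first annotated untranslated base are printed here, 5′ to 3′ on the gene's strand. The RefSeq start of Batf3 lies downstream of the deposited gene start, so its stretch falls inside the interval given above. Capitals mark matches to any of 6 motifs searched on both strands.
Bhlhe41, chr6:145865559-145865670, minus strand: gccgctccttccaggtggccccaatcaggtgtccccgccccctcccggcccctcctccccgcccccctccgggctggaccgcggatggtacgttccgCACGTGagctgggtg
Egr2, chr10:67535249-67535477, plus strand: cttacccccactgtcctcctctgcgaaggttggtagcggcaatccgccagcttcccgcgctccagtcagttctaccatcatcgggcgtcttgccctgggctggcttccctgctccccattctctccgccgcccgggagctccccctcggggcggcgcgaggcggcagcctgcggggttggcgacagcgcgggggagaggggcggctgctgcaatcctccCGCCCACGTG
Batf3, chr1:191098164-191098324, plus strand: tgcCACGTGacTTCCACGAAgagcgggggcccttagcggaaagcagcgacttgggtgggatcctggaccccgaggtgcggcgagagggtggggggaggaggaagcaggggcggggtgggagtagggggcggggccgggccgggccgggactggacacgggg
Irf4, chr13:30748983-30749225, plus strand: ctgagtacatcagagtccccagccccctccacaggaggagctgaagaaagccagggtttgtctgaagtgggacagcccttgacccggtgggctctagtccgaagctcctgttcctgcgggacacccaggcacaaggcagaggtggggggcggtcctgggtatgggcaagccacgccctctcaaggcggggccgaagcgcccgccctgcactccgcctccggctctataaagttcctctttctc
The E-box CACGTG, the letters bound by Bhlhe40 and Bhlhe41, stood in the windows of Bhlhe41 (from base -153, counted from the RefSeq start), Egr2 (from base -27) and Batf3 (from base -247). It was in 7.15% of all 32851 windows and in at least 1 window of 8.09% of genes. The EGR core GTGGGCG was found in the window of Egr2, from base -31 on the other strand, where it overlaps the E-box, and in 7.97% of all windows. The general STAT spacing TTCNNNGAA was found in that of Batf3, from base -239, and in 8.30% of windows. The STAT6 spacing, TTC and GAA with 4 bases between, was in none of the 4 genes and 6.95% of windows. The joint PU.1 and IRF letters, GGAA and GAAA with 2 bases between, were in none and 2.72%, and the AP-1 letters TGANTCA in none and 7.81%. Egr2 has 4 further RefSeq windows, without any of the 6 motifs, and the window of Irf4 held none. These are matches of letters in short windows and say nothing of binding.

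The same genes followed different courses as marrow precursors became mature macrophages. Irf4 fell at both steps, Bhlhe40 at the first and Batf3 at the second, while Bhlhe41 rose at both and Egr2 rose over the whole course. The second rise of Bhlhe41 and the rise of Egr2 did not pass in several alternatives, given below, and Egr2 passed at neither single step. Of the 5 members that passed the filter on low counts, 1 rose and 2 fell in immature macrophages against precursors, 1 rose and 2 fell in mature against immature macrophages, and 2 rose and 3 fell in mature macrophages against precursors. Over all 13359 genes tested, 22.5% rose and 26.6% fell in the first of these comparisons, 7.52% and 7.38% in the second, and 25.8% and 28.5% in the third. Whether the counts of these 5 genes differ from such shares was not tested. These comparisons share groups, so a member's 3 changes are not independent of each other.

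**Figure D2:**
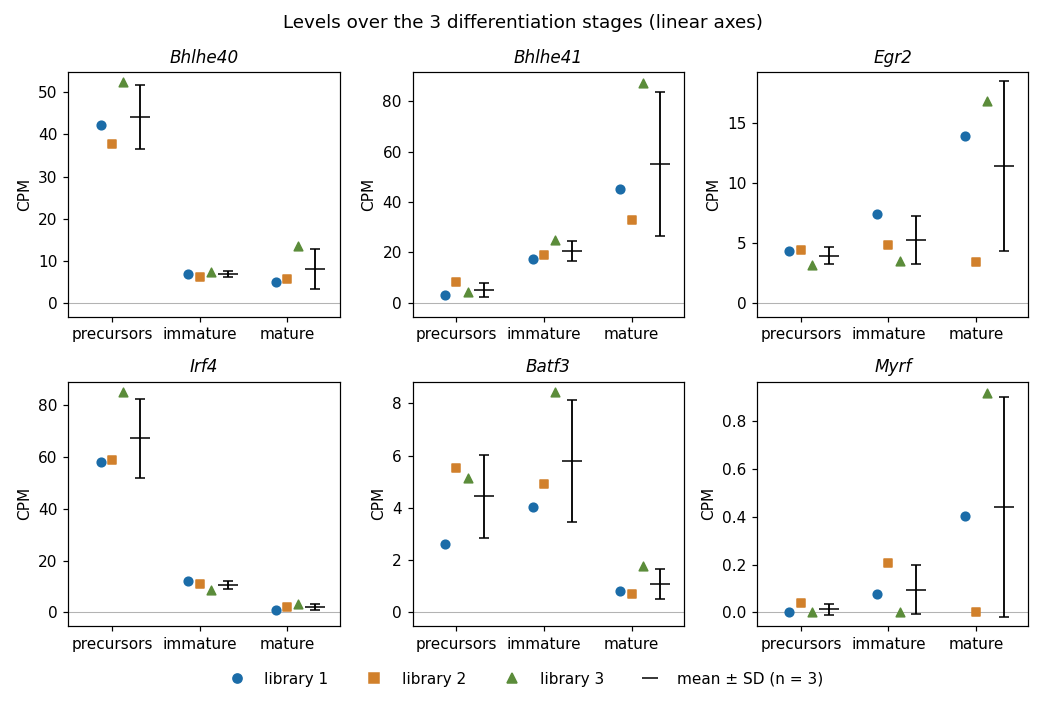
CPM of the 6 members (linear axes) in the 3 libraries of each stage, with the stage mean ± SD. Bhlhe40 and Irf4 are highest in precursors (37.7 to 52.4 and 58.1 to 84.9 CPM), Bhlhe41 in mature macrophages (32.9 to 87.5 CPM), and mature library 3 is the highest mature library in all 6 panels.

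Irf4 fell throughout. It had 58.1, 58.8 and 84.9 CPM in the precursor libraries, 12.0, 10.8 and 8.82 CPM in the immature and 0.971, 2.11 and 3.29 CPM in the mature ones. No stage overlapped another. The log2 fold change was -2.67 ± 0.33 in immature macrophages against precursors (adjusted p = 0.000112), -2.31 ± 0.36 in mature against immature macrophages (adjusted p = 0.00229) and -4.97 ± 0.38 in mature macrophages against precursors (adjusted p = 3.34e-06). The authors' deposited tables list it in all 3 comparisons, with FDR = 5.89e-21, 5.23e-05 and 6.34e-31 in that order.

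Bhlhe40 had 42.2, 37.7 and 52.4 CPM in precursors, 6.78, 6.04 and 7.41 CPM in immature and 4.86, 5.73 and 13.5 CPM in mature macrophages. Precursors stood above both later stages, which overlapped each other. Bhlhe40 fell by 2.71 ± 0.36 in immature macrophages against precursors (adjusted p = 0.000169) and by 2.44 ± 0.36 in mature macrophages against precursors (adjusted p = 0.000224). Mature against immature macrophages did not pass (0.27 ± 0.36, adjusted p = 0.666), and without mature library 3 the value was -0.35 (adjusted p = 0.317).

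Batf3 had 2.63, 5.53 and 5.14 CPM in precursors, 4.02, 4.91 and 8.44 CPM in immature and 0.810, 0.702 and 1.76 CPM in mature macrophages. The mature libraries lay below all others, and the earlier stages overlapped. It fell by 2.36 ± 0.49 in mature against immature macrophages (adjusted p = 0.00961) and by 1.99 ± 0.48 in mature macrophages against precursors (adjusted p = 0.00541), and was at 0.37 ± 0.44 in immature macrophages against precursors (adjusted p = 0.508). The limma fit on the deposited log2 values gave -1.12 for mature macrophages against precursors, which did not pass (adjusted p = 0.0608).

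The falls of Irf4 and Bhlhe40 at the first step ran beside lower levels of the markers of other marrow cells, some of which also use these factors. Batf3 did not fall at that step, and its later fall ran beside a further drop of dendritic cell markers that were already low. The 7 dendritic cell markers (Flt3, Zbtb46, Xcr1 and others) summed to 179 to 217 CPM in precursors, 5.12 to 7.80 in immature and 0.230 to 0.810 in mature macrophages, where 6 of the 7 were at 0 reads. The 6 B cell markers (Cd79a, Pax5, Ebf1 and others) summed to 243 to 347, 1.97 to 2.94 and 0 to 0.0765 CPM over the same stages, and 5 of the 6 were at 0 reads in mature macrophages. The part of these cells in the levels of Irf4, Batf3 and Bhlhe40 in precursors was not tested. In such bulk samples, fewer cells of a type and less RNA per cell cannot be told apart. In the IL4 table, where a 0 is no measure of absence, all 6 B cell markers were at 0 reads in both groups. The dendritic cell markers summed to 1.34 to 1.65 CPM with IL4 and 0 to 0.493 CPM without, with 5 and 6 of the 7 at 0 reads. Of 4 plasma cell markers, Sdc1 rose (4.05 ± 0.43, adjusted p = 8.28e-05) with IL4. Prdm1, named after its values were seen, rose too (1.08 ± 0.34, adjusted p = 0.0468), but not without unstimulated library 2 or 3 (0.134 and 0.123) or IL4 library 1, 2 or 3 (0.0860, 0.106 and 0.0623). Jchain and Mzb1 were at 0 reads in all 6 libraries.

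Bhlhe41 took the opposite course to its relative. It had 2.90, 8.32 and 4.09 CPM in precursors, 17.4, 18.8 and 24.9 CPM in immature and 45.0, 32.9 and 87.5 CPM in mature macrophages. The stages did not overlap, and mature library 3 was the highest of all. Bhlhe41 rose in immature macrophages against precursors (1.97 ± 0.44, adjusted p = 0.00372) and in mature macrophages against precursors (3.41 ± 0.45, adjusted p = 0.000121). The step to mature from immature macrophages passed narrowly (1.44 ± 0.42, adjusted p = 0.0415). It did not pass without immature library 1, 2 or 3 (adjusted p = 0.112, 0.139 and 0.0603), without mature library 1 or 3 (0.0547 and 0.110), without precursor library 3 (0.0560), with the mouse number as a replicate block (0.0503) or by limma (0.104). A predicted gene of 1 to 4 reads a library, Gm43909, overlaps Bhlhe41 on the other strand, and 0610040F04Rik, at 0 reads in every library, overlaps the start of Bhlhe40.

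Egr2 had 4.28, 4.36 and 3.13 CPM in precursors, 7.41, 4.81 and 3.45 CPM in immature and 13.9, 3.39 and 16.8 CPM in mature macrophages. Mature library 2 lay among the precursors and the other mature libraries above all earlier ones. Egr2 rose in mature macrophages against precursors (1.54 ± 0.50, adjusted p = 0.0237), a call lost without mature library 1 or 3 (adjusted p = 0.0639 and 0.0855) or without precursor library 1, 2 or 3 (0.0559, 0.0540 and 0.0776). It was at 0.42 ± 0.51 in immature macrophages against precursors (adjusted p = 0.517) and 1.12 ± 0.50 in mature against immature macrophages (adjusted p = 0.159), which passed in 1 alternative, without mature library 2 (1.54, adjusted p = 0.0210).

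Myrf stayed near the detection limit and did not pass the filter on low counts. It had 0, 1 and 0 reads in the precursor libraries, 1, 2 and 0 in the immature and 5, 0 and 12 in the mature ones. Pooled over libraries, the ratio of scaled reads was 5.05 in mature over immature macrophages (exact 95% counting interval 1.46 to 26.9) and 26.2 in mature macrophages over precursors (4.11 to 1096). The 12 reads of mature library 3 carry most of this, and mature library 2 had 0. The authors' deposited table lists Myrf for mature macrophages against precursors with FDR = 0.0175, and for neither other stage comparison.

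Mature library 3 was the highest mature library for all 6 members. Without it, 0 members rose and 2 fell in mature against immature macrophages, and 1 rose and 3 fell in mature macrophages against precursors. Of the marker genes of IL4 treatment, Arg1 was highest in mature library 1 (12.1, 0.819 and 3.75 CPM in libraries 1, 2 and 3). Mrc1 was lowest in library 3 (1786, 1217 and 694 CPM). With IL4 it was lower too, at 982 ± 226 CPM against 1781 ± 457 CPM without, though not called in every fit, as given above. Retnla had 0 reads in all 3 mature libraries, and Chil3 had 1 read in the 3 together. Why library 3 stood highest for the members was not tested.

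**Figure D3:**
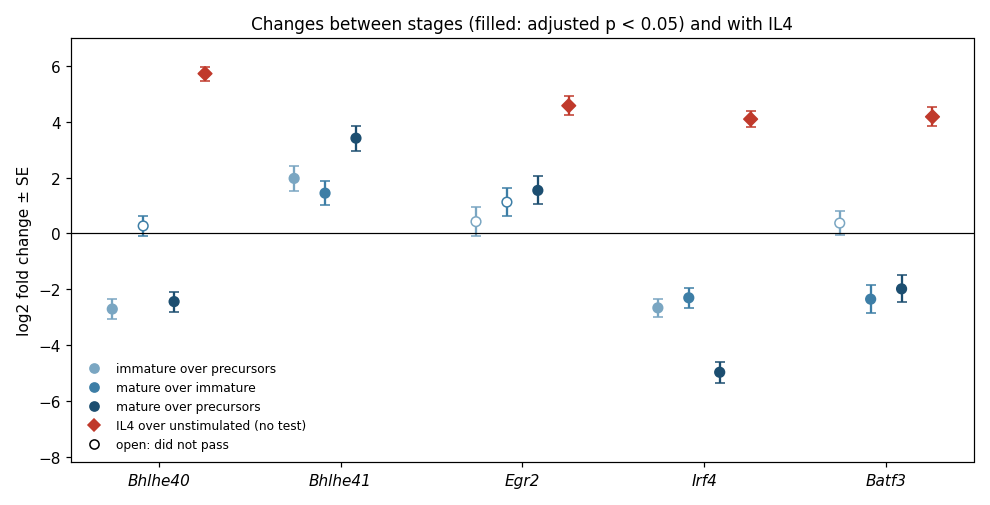
Log2 fold change ± SE of 5 members in the 3 stage comparisons (circles, filled where the adjusted p was under 0.05) and with IL4 (diamonds, no test, none for Bhlhe41). The members that lie between 4.09 and 5.72 with IL4 lie on either side of 0 over differentiation, from -4.97 for Irf4 to 1.54 for Egr2 in mature macrophages against precursors, and Bhlhe41 lies at 3.41 there.

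Set side by side, the member ranks changed with the stage. Per kb of exon, the mean level in precursors was highest for Irf4 (13.7 CPM per kb) and Bhlhe40 (9.38), then Batf3 (2.78), Egr2 (1.15) and Bhlhe41 (0.759). In mature macrophages Bhlhe41 led (8.20 CPM per kb), followed by Egr2 (3.35), Bhlhe40 (1.71), Batf3 (0.683) and Irf4 (0.433), with Myrf last at 0.0515. Centred on their own means over the 9 libraries, Bhlhe41 and Egr2 were the most alike pair of members (root mean square difference 1.13 in log2 CPM), next Bhlhe40 and Irf4 (1.18), and Bhlhe41 and Irf4 the least alike (3.49).

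Other genes lay closer to the members, but these were picked as the nearest from a far larger pool. Among 9781 genes with a mean of at least 5 CPM, the closest to Bhlhe40 over the 9 libraries were Rogdi (root mean square difference 0.178) and the Krüppel-like factor Klf7 (0.202). Klf7 had 41.1 ± 5.11 CPM in precursors, 7.12 ± 0.631 in immature and 8.44 ± 3.25 in mature macrophages (SD, n = 3). The closest to Bhlhe41 were the RNA-binding protein gene Stau2 (0.292) and Psd3 (0.346). Psd3 itself had 17.4 ± 6.79, 62.8 ± 15.5 and 151.9 ± 27.4 CPM in the 3 stages in order. Irf4 was most like Tlr5, the flagellin receptor (0.275; 14.0 ± 2.40, 1.54 ± 0.20 and 0.258 ± 0.190 CPM), and Fam117a (0.310). Egr2 was nearest to Bad (0.373), a cell death regulator, and Ampd3 (0.398), and Batf3 to the noncoding Snhg17 (0.449) and the helicase gene Ddx39b (0.486), at larger distances than for the other members.

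To place the members among their relatives, 64 genes in 6 lists were followed. With IL4, 17 of the 44 tested rose and 8 fell, 38.6% and 18.2%, beside 10.5% and 10.3% of all genes tested. Their median log2 fold change was 0.31 against 0.01 over all genes. With the mouse number as a replicate block 19 rose and 8 fell. In mature macrophages against precursors 13 of 52 rose and 17 fell, 25% and 32.7%, beside 25.8% and 28.5% of all genes tested. In immature macrophages against precursors 17 rose and 15 fell, 32.7% and 28.8%, beside 22.5% and 26.6%. In mature against immature macrophages 3 rose and 5 fell, 5.77% and 9.62%, beside 7.52% and 7.38%. The lists were drawn up knowing results of these data.

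**Figure D4:**
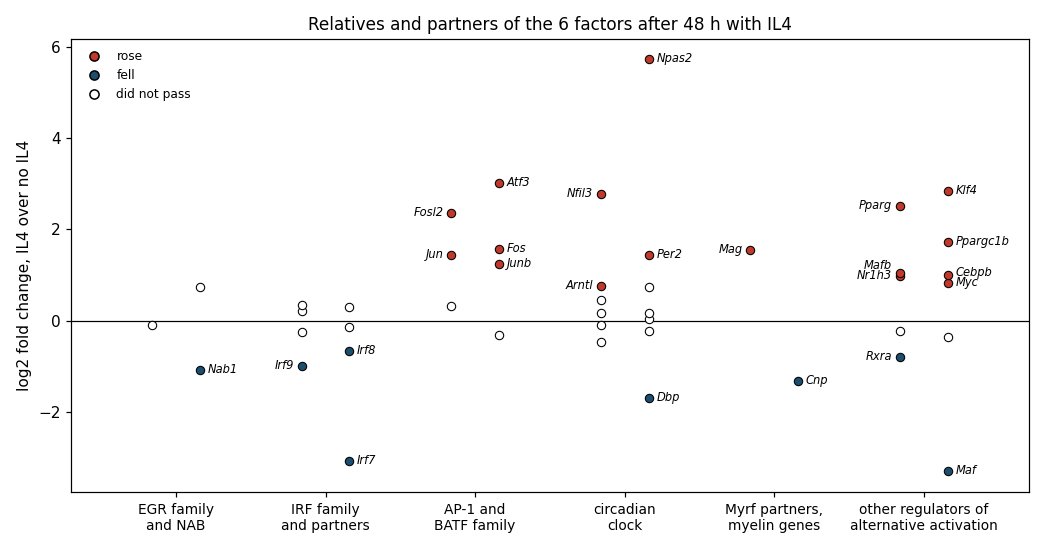
Log2 fold change with IL4 of the 44 relatives tested, by list, as points filled where the gene rose or fell (adjusted p under 0.05) and open where it did not pass. Rises gather in the AP-1 and alternative activation columns, falls in the IRF column (3 of 8), and Npas2, with 3 unstimulated reads, stands highest at 5.72.

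Among AP-1 and BATF family genes, the wider family of Batf3, 5 of 7 rose with IL4 and 0 fell (median 1.43). Jund was not among the 7, with 0 to 3 reads a library with IL4 and 0 to 1 without. It had 868 to 1736 reads in the mature libraries of the differentiation table, so a count near 0 in the IL4 table may be no measure of absence either. Atf3 stood at 1585 ± 115 CPM with IL4 and 196 ± 35.7 CPM without (3.02 ± 0.20, adjusted p = 3.67e-06). Fosl2 stood at 468 ± 178 CPM with IL4 and 90.9 ± 12.1 CPM without (2.37 ± 0.26, adjusted p = 0.000100), and Jun at 83.6 ± 10.1 CPM with IL4 and 30.9 ± 3.03 CPM without (1.43 ± 0.18, adjusted p = 0.000266). Fos and Junb were the other 2 that rose. In immature macrophages against precursors 3 rose and 3 fell of 8, Atf3 rising by 2.91 ± 0.32 (adjusted p = 4.84e-05) and Fosl2 falling by 2.84 ± 0.22 (adjusted p = 6.59e-06). In mature against immature macrophages 2 rose and 1 fell. There Batf, the close relative of Batf3, fell to 3.02 ± 0.698 CPM in mature macrophages, against 11.1 ± 4.03 CPM in immature ones (-1.86 ± 0.34, adjusted p = 0.00478), and Fos rose (2.20 ± 0.36, adjusted p = 0.00281).

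Among other IRF genes and PU.1-type partners, 0 of 8 rose with IL4, 3 fell and 5 did not pass (median -0.20), with the same counts under the replicate block. Irf7, which drives interferon genes, stood at 8.34 ± 3.85 CPM with IL4 and 69.8 ± 29.4 CPM without (-3.09 ± 0.38, adjusted p = 0.000187). Irf8, the closest relative of Irf4, fell by 0.67 ± 0.19 (adjusted p = 0.0291), a call lost without unstimulated library 2 (adjusted p = 0.0806) or 3 (0.0945) or IL4 library 1 (0.0811) or 2 (0.125). Irf9 fell by 1.00 ± 0.29 (adjusted p = 0.0347), lost without unstimulated library 1 (0.122) or IL4 library 2 (0.123) or 3 (0.119). In mature macrophages against precursors 4 of 9 fell and 0 rose. Spib, a PU.1 relative of B cells and plasmacytoid dendritic cells, had 0 reads in mature macrophages, against 49.0 ± 6.58 CPM in precursors, and Irf2 fell by 1.76 ± 0.28 (adjusted p = 0.000419).

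Among EGR family and NAB corepressor genes, 0 of 3 rose with IL4 and 1 fell. With the replicate block Nab2 rose too (0.63 ± 0.21, adjusted p = 0.0274), a gene at 0.74 ± 0.33 without the block (adjusted p = 0.153). Nab1, which binds EGR proteins and restrains them, stood at 88.9 ± 14.6 CPM with IL4 and 188 ± 6.96 CPM without (-1.08 ± 0.17, adjusted p = 0.00116). Egr1, named after its values were seen, was at -0.10 ± 0.49 with IL4 (adjusted p = 0.926), beside 4.57 for Egr2. Over differentiation the family also split, as Egr1 and Egr3, likewise named afterwards, fell in immature macrophages against precursors (adjusted p = 0.000183 for Egr1 and 0.000406 for Egr3). Each had 2 reads in all immature libraries together, against 232 reads of Egr1 and 207 of Egr3 in precursors. The pooled ratio in immature macrophages over precursors was 0.0149 for Egr1 (exact 95% counting interval 0.00180 to 0.0545) and 0.0167 for Egr3 (0.00201 to 0.0612). Nab2 rose there (0.82 ± 0.21, adjusted p = 0.00854), and in mature macrophages against precursors Nab1 rose by 0.62 ± 0.18 (adjusted p = 0.0128).

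Of 13 circadian clock genes tested with IL4, 4 rose and 1 fell (median 0.17). Rora passed with the replicate block as the fifth (0.76 ± 0.19, adjusted p = 0.00554), and not without it (0.74 ± 0.29, adjusted p = 0.107). Npas2, a partner of BMAL1, stood at 16.5 ± 2.94 CPM with IL4 and 0.243 ± 0.247 CPM without (adjusted p = 1.29e-05). Its unstimulated level rests on 3 reads, so that the ratio of pooled scaled reads, 59.6, had an exact 95% counting interval of 20.0 to 292. Nfil3, a repressor of D-box genes, stood at 101 ± 9.17 CPM with IL4 and 14.3 ± 5.24 CPM without (2.78 ± 0.25, adjusted p = 3.02e-05). Per2 rose by 1.43 ± 0.25 (adjusted p = 0.00183). In immature macrophages against precursors 8 of 16 rose and 5 fell, led by the PAR bZIP factors Dbp (4.86 ± 0.39, adjusted p = 6.91e-06) and Tef (2.66 ± 0.23, adjusted p = 1.09e-05) and by the receptor Nr1d2 (2.88 ± 0.24, adjusted p = 7.35e-06), where Bhlhe40 fell and Bhlhe41 rose. In mature against immature macrophages Nfil3 fell by 2.50 ± 0.27 (adjusted p = 0.000331).

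Of 9 Myrf partners and myelin genes, some of which Myrf switches on in oligodendrocytes, 3 could be tested over differentiation and 2 with IL4. Mbp, which encodes myelin basic protein, stood at 81.6 ± 13.2 CPM in mature macrophages and 135.5 ± 15.1 CPM in precursors (-0.73 ± 0.22, adjusted p = 0.0177), a call lost without precursor library 3 (adjusted p = 0.0644) or mature library 2 (0.0656). Mag, named after its values were seen, rose in immature macrophages against precursors (1.57 ± 0.43, adjusted p = 0.0113). The 2 genes tested with IL4 moved opposite ways. Cnp, a myelin nucleotide phosphodiesterase also made in other cells, stood at 42.0 ± 6.95 CPM with IL4 and 105 ± 10.7 CPM without (-1.33 ± 0.19, adjusted p = 0.000507), and Mag rose by 1.55 ± 0.39 (adjusted p = 0.0155) at a mean of 4.41 CPM with IL4. The call of Mag with IL4 was lost with DESeq2 (0.0808) and without unstimulated library 3 (0.0740) or IL4 library 1 (0.0591).

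Of 11 other regulators of alternative activation tested, 7 rose and 2 fell with IL4 (median 0.97). Klf4 stood at 87.1 ± 0.325 CPM with IL4 and 11.9 ± 4.40 CPM without (2.84 ± 0.25, adjusted p = 2.26e-05). Pparg, the lipid-sensing nuclear receptor, stood at 84.8 ± 25.6 CPM with IL4 and 15.1 ± 3.51 CPM without (2.51 ± 0.27, adjusted p = 8.70e-05). Maf, an activator of Il10, fell to 12.4 ± 5.19 CPM with IL4, against 122.8 ± 8.43 CPM without (-3.31 ± 0.26, adjusted p = 1.30e-05). Like Irf4, Bhlhe40 and Batf3, Klf4 was higher with IL4 and lower in mature macrophages than in precursors (-2.87 ± 0.33, adjusted p = 4.74e-05). Kdm6b, a histone demethylase, fell there (-5.91 ± 0.52, adjusted p = 7.96e-06), and Rxra, the partner of Pparg, rose by 2.08 ± 0.25 (adjusted p = 5.26e-05).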

How the data were processed

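The 6 genes and the lists set beside them were chosen with earlier results of these data known. Per the submitters' processing notes, the authors aligned Ion Torrent reads with HISAT2 2.0.5 and used edgeR, and named the builds GRCm38.p6 and GRCm39.p6; how reads were counted, and whether by strand, is not given in the sources used here. Deposited by the authors were read counts per gene and log2 RPM, in 1 table for the 9 differentiation libraries and another for the 6 IL4-table libraries, and lists of genes with an adjusted p-value (FDR).

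Each table of deposited counts was fitted on its own with edgeR 4.0.16 under R 4.3.3: filterByExpr (minimum count 10, by group) kept 13359 and 8936 genes, 5 of the 6 members in each. Scaling was by TMM, followed by glmQLFit and glmQLFTest without covariates and Benjamini-Hochberg adjustment over all genes tested, with calls under 0.05. The fit was tested on simulated data. Alternatives were RLE scaling, DESeq2 1.42.0, no filter, at least 1 CPM in 3 libraries, limma 3.58.1 on log2 RPM, a replicate block, only the 2 stages compared, and leaving out each library. In the IL4 table, libraries with the same mouse number in their titles deviated together (correlations of 0.591, 0.175 and 0.413). Libraries of different numbers had correlations of -0.487 to 0.247. These ranges overlap and the descriptions carry other numbers, so the pairing is not settled, and the replicate block is given as an alternative. Beyond the mouse numbers, nothing says that libraries are separate cultures, and p-values measure the spread between these libraries.

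Per list and comparison, the 3 called genes of lowest p were named, given 5 CPM or more in the higher group, and for each member the 2 genes most alike over the 9 differentiation libraries (log2 CPM, prior count 2). Coordinates are those of the differentiation table on GRCm38. Intervals are exact at 95% and cover counting error only. Protein sequences were not used here. A marker gene is not reported here and is left out of the sums of its list.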

Additional observations from a re-analysis of the deposited data

How the results depend on the processing

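Bhlhe40, Irf4 and Batf3 kept their falls, and Bhlhe41 its rise against precursors, in every alternative except limma for Batf3, given above. The alternative values of single members' changes include those with IL4, on which the members were chosen and which carry no test. Of all these values, 283 kept direction and side of the threshold, 14 lost the call and 1 gained it. The 283 are therefore no measure of the stage results alone. Another 1 moved by more than the replicate spread (Egr2 with IL4, 5.23 without unstimulated library 1). The last 1 reversed (Bhlhe40 in mature against immature macrophages, -0.35 without mature library 3, and -0.35 to 0.54 leaving out 1 library). The number of members that rose in mature against immature macrophages was 1, but 0 with a replicate block and 0 by limma, and 0 to 2 leaving out 1 library. It was 2 in mature macrophages against precursors and 1 to 2 leaving out 1 library. Genes called in mature against immature macrophages numbered 1991, but 1245 in a fit of only the 2 stages compared (fewer samples), and 1007 to 2702 leaving out 1 library. The 1007 arose without immature library 2, and 1262 without immature library 1. With IL4, 1855 genes were called and 2883 with the replicate block. Among the relatives tested with IL4 the block added the calls of Nab2 and Rora, given above, and changed no other. In the differentiation table, same-numbered libraries deviated with correlations of -0.129 to 0.165, so the number was not taken to pair them, and the block ended 1 member's call, that of Bhlhe41 in mature against immature macrophages. Depth limits Myrf over differentiation and the unstimulated levels of Myrf and Batf3, which rest on few reads.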

Other observations

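Batf3 and Atf3 lie near each other on chromosome 1, with 61.4 kb between the end of Batf3 and the start of the deposited Atf3 interval. Both were higher with IL4, at log2 fold changes of 4.17 ± 0.33 and 3.02 ± 0.20. In mature macrophages against precursors they moved apart, as Batf3 fell by 1.99 ± 0.48 (adjusted p = 0.00541) and Atf3 rose by 3.24 ± 0.32 (adjusted p = 1.83e-05, edgeR). The relation was not tested.

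The tables also differ in the other direction. Junb stood at 70.4 ± 14.9 CPM with IL4 and 29.7 ± 11.3 CPM without (SD, n = 3 each), but at 0 reads in all mature libraries of the differentiation table. Among genes matched by identifier in both tables, 5618 had at least 50 reads in each unstimulated library. Of these, 2 had 0 reads in all mature libraries, against 615 of 9074 the other way. Junb has no identifier in the differentiation table and is outside these counts.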
